A study of Mus musculus with 6 samples.

Results

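Mcu, Micu2, Smdt1, Mcur1, Letm1, Vdac1, Vdac2 and Vdac3 are 8 nuclear genes that encode the mitochondrial calcium uniporter with its partners, an exchanger of the inner membrane and the voltage-dependent anion channels of the outer membrane. They were chosen by name from the 49585 gene rows of the deposited table, and all 8 were found. The table counts ribosome-protected fragments, short pieces of mRNA left after nuclease treatment because a ribosome covered them, in 6 heart libraries. The PG group, 3 libraries of male mice, was kept at partial gravity (0.167 g) in habitat cages in a centrifuge of 15 cm radius at 31 rpm. The GC group, 3 libraries of male mice that the labels call C57BL/6 J, was the ground control at 1 g under conditions matched to the space station. The labels give an age of 8 or 9 weeks for all libraries, name no transgene or other allele, and do not name the strain of the PG mice. The PG mice also flew, and no flown 1 g group was analysed here, so gravity and flight cannot be told apart. The labels do not tie a library to an animal; p-values therefore measure the spread between libraries, which may be technical. No RNA-seq was used here, so a fragment count reflects mRNA level and translation together, and fewer cells of a type cannot be told apart from less RNA per cell.

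Calcium that reaches the mitochondrial surface passes the outer membrane through VDAC channels and then crosses the inner membrane through the uniporter, driven by the membrane potential. The pore is formed by MCU and needs EMRE, the product of Smdt1, to conduct in animals, while the MICU proteins keep it closed at resting calcium. In heart muscle, matrix calcium raises the activity of dehydrogenases that feed the respiratory chain, and sodium-calcium and proton-coupled exchangers carry calcium back out.

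In each of Mcu, Micu2, Smdt1 and Letm1 an annotated transcript start lies close to an ATG, the codon at which ribosomes start. These starts are shown because the assay measures ribosomes on the mRNA. In the RefSeq windows of GRCm38.p6, which held 6 of the 8 genes (all but Vdac2 and Vdac3), the first ATG within the first 50 transcribed bases was looked for on the transcript strand. The sequences below are on the genes' own strand, 5′ to 3′, with that ATG in capitals. Mcu is on the minus strand at chr10:59616653-59616682, Micu2 on the minus strand at chr14:57999222-57999251, Smdt1 on the plus strand at chr15:82346072-82346095 and Letm1 on the minus strand at chr5:33782688-33782717.
Mcu: tccagttgagagATGgcggccgccgcaggt
Micu2: gcttccgcaaagATGgcggcggctgcggga
Smdt1: gcggagctggagATGgcgtccacg
Letm1: gtgccgggacATGgccgctgcggatgccgg
Counted from the start used in these windows, this ATG comes after 22 transcribed bases in Mcu, 23 in Micu2, 38 in Smdt1 and 10 in Letm1. The RefSeq spans of Mcu and Micu2 reach to 59617409 and 57999296, upstream of the starts used. The deposited gene spans of Smdt1 and Letm1 also begin upstream of them, at 82338959 and 33782817. Each distance therefore holds only for the start used. In these 4, but not in Vdac1 (below), the ATG has an A or G at the third base before it and a G right after it. This is the context described as favourable for initiation. Across the 32851 windows of this length, 44.3% hold an ATG in their first 50 transcribed bases and 10.3% hold one in this context. In Letm1 the frame opened by this ATG ends at a stop as its codon 11, still inside the window. In Mcu, Micu2 and Smdt1 no stop was met, but their windows end before a codon 11. A stop as far along as that of Letm1 could not be seen there, so the frames cannot be compared. The Mcur1 window held no ATG there. Of the 2 Vdac1 windows 1 did, after 43 bases, with a G at the third base before it but followed by a C. The deposited counts are sums per gene, so they do not show where on an mRNA the fragments lie.

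The libraries held 2416699 to 2935343 exon reads in PG and 2212473 to 3196070 in GC. Lars2 and Tmem38b together took 45.5% to 52.5% of them, most in PG replicate 3. Over all genes that library also stood apart, with a chi-square per degree of freedom of 24.2 and 14.8 against the other PG libraries, where the other pairs within a group had 4.16 to 5.15. Ventricular cardiomyocyte markers were all detected. Of their 12 tested members 3 were lower in PG, Actc1, Tnnc1 and Ckm, and 0 were higher, where 0.329% of all genes tested were called lower in PG (edgeR, adjusted p under 0.05). Of the reads of Actc1, Tnnc1 and Ckm, 15.5%, 19.4% and 71.8% fitted a single place. The sum of the 12 markers was 44136 to 51485 CPM (reads scaled to a common library size) in PG and 54240 to 62320 in GC. Actc1 alone averaged 6939 ± 1422 CPM in PG and 11784 ± 1155 CPM in GC (SD). Log2 fold changes of the 12 were positive in 2 and negative in 10, with a median of -0.17. Of the other marker lists 1 held a called gene, smooth muscle actin Acta2, lower in PG (log2 fold change -0.64 ± 0.14). Actc1 is in the rule for named genes, and the other 3 called markers were named after their values were seen. Median log2 fold changes were -0.45 over 7 tested fibroblast markers, -0.39 over 5 erythroid, -0.36 over 4 atrial, -0.26 over 6 macrophage, 0.023 over 8 endothelial and 0.040 over 6 smooth muscle and pericyte markers. The part of these cells in the values below was not tested. Skeletal muscle and adipocyte markers summed to at most 5.64 CPM in PG and 10.1 CPM in GC.

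The 8 genes differed far more from each other than between the groups. Levels were compared per length, as TMM-scaled CPM of total exon reads divided by exon length in kilobases (RPKM), and the mean over the 6 libraries is given here. Vdac1 stood highest at 383, above 99.2% of the 9124 genes tested. Vdac3 followed at 68.9, then Vdac2 at 50.3 and Smdt1 at 37.4. Micu2 stood at 21.0, Mcur1 at 11.4 and Letm1 at 6.46. Mcu, the pore itself, was lowest at 2.14, above 28.8% of the genes tested, and Vdac1 was 179-fold above it on this scale.

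The order of the 8 genes was the same in the means of PG and of GC. The ranges of Vdac1 and Vdac3, of Smdt1 and Micu2, and of Letm1 and Mcu did not overlap over the 6 libraries. The ranges of the other 4 pairs of neighbours did: Vdac3 lay above Vdac2, Micu2 above Mcur1 and Mcur1 above Letm1 in 6 of 6 libraries, while Vdac2 lay above Smdt1 in 5 of 6. Exon length includes untranslated sequence, where few ribosomes sit, so these levels understate genes with long untranslated regions. The exon length in the table is 6936 bases for Mcu and 9650 for Letm1, against 1077 for Smdt1. In GRCm38 the other genes lie on chromosome 14 from 57916280 to 57999262 (Micu2) and from 21831269 to 21845879 (Vdac2), chromosome 15 from 82338959 to 82349091 (Smdt1), chromosome 13 from 43538412 to 43560191 (Mcur1), chromosome 11 from 52360860 to 52389397 (Vdac1) and chromosome 8 from 22577075 to 22593813 (Vdac3); all 8 are annotated as protein-coding.

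**Figure D1:**
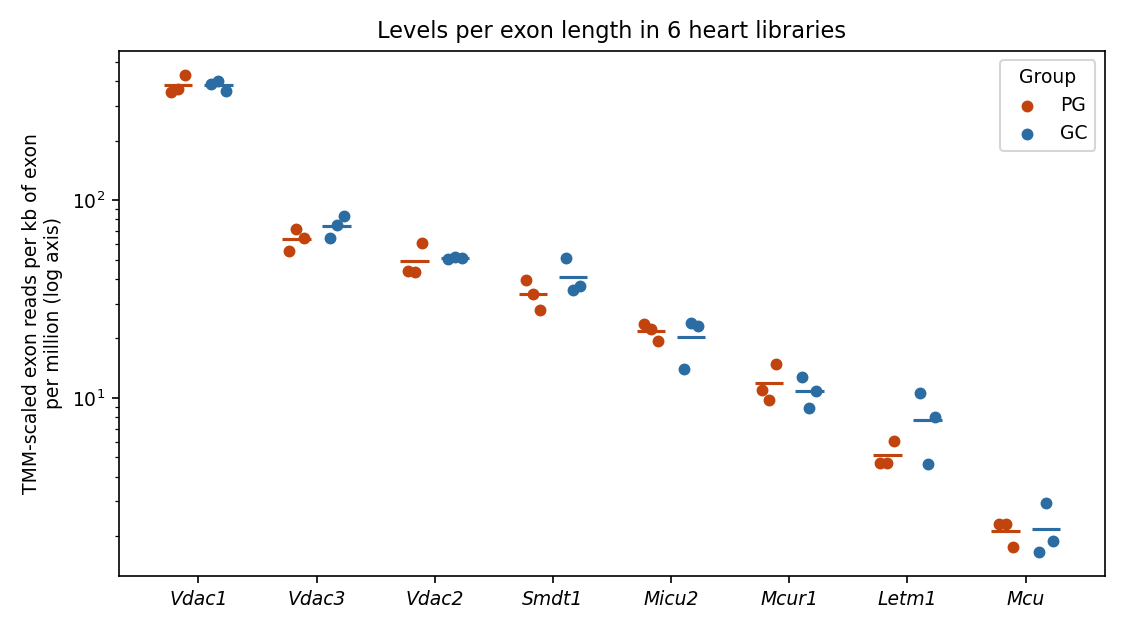
Level in RPKM, TMM-scaled, from total exon reads (log axis), for each gene in the 3 PG and the 3 GC libraries, with points for libraries and lines for group means. Levels run from a mean of 383 for Vdac1 to 2.14 for Mcu, and the PG and GC points overlap in every gene.

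None of the 8 genes passed the test between PG and GC. In edgeR's quasi-likelihood test 0 of 8 passed a Benjamini-Hochberg adjusted p of 0.05 over all 9124 genes tested, where 0.581% of genes were called, 0.252% as higher and 0.329% as lower in PG. At an unadjusted p under 0.05, 1 of 8 was found, Letm1, against 10.4% of all genes tested. In 0 of 8 were all PG libraries on one side of all GC libraries, against 16.3% of all genes tested. Log2 fold changes, PG over GC, were positive in 3 genes and negative in 5, with a median of -0.036 beside -0.0017 for all tested genes. Without PG replicate 3, 0 of 8 were called and their median was -0.12. In that setting 54 of 9798 genes were called and the median of all was -0.0035. All 8 passed the filter on low counts. On unique reads alone 0 of 8 were called, where 1.08% of 8342 genes tested were. DESeq2 and limma-voom also called 0 of the 8, and each had 1 at an unadjusted p under 0.05. Of all 9124 genes they called 73 and 80, and had 725 and 953 at an unadjusted p under 0.05. The authors' deposited table has a corrected p of 1.0 for each of the 8 and its largest fold for Letm1, -1.50, where a negative value means lower in PG.

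Mcu had 48, 50 and 26 exon reads in PG replicates 1, 2 and 3, and 24, 47 and 42 in GC replicates 1, 2 and 3. Scaled, that is 14.7 ± 2.16 CPM in PG and 15.0 ± 4.76 CPM in GC (SD, n = 3 each), and the PG values lie inside the GC range. The log2 fold change was -0.019 ± 0.31 (SE), with a 95% interval of 0.636-fold to 1.53-fold. The gene lies on chromosome 10, from 59446984 to 59616692 in GRCm38. With so few reads, this interval was the widest of the 8.

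Smdt1 encodes EMRE, the small membrane protein that links MCU to its gatekeepers. Its CPM values were 42.6, 36.3 and 30.1 in PG replicates 1, 2 and 3 and 54.9, 37.9 and 39.8 in GC replicates 1, 2 and 3. PG replicate 3 was lowest and GC replicate 1 highest, and the groups overlapped. The log2 fold change was -0.27 ± 0.20 (SE), with an adjusted p of 0.714 in edgeR and a 95% interval of 0.620-fold to 1.11-fold.

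Micu2 encodes a calcium-binding gatekeeper of the pore. It stood at 54.6, 51.6 and 44.6 CPM in PG replicates 1, 2 and 3 and at 32.3, 55.3 and 53.5 CPM in GC replicates 1, 2 and 3. All libraries but GC replicate 1 lay close together. The log2 fold change was 0.091 ± 0.20 (SE), with an adjusted p of 0.923 (edgeR). Mcur1, described as a scaffold or regulator of the uniporter, had 47.9, 42.3 and 64.8 CPM in PG replicates 1, 2 and 3 and 55.9, 38.7 and 46.9 CPM in GC replicates 1, 2 and 3. Its log2 fold change was 0.12 ± 0.20 (SE), with an adjusted p of 0.887 (edgeR), and it was -0.060 without PG replicate 3, its highest library.

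Letm1 encodes an inner membrane protein that exchanges cations for protons, with potassium and calcium both described as its substrates. It was the gene with the largest difference: 136, 142 and 125 reads in PG replicates 1, 2 and 3, against 213, 103 and 249 in GC replicates 1, 2 and 3. In CPM these are 45.2, 45.2 and 58.7 in PG and 103, 44.8 and 77.4 in GC. GC replicates 1 and 3 lay above all PG libraries and GC replicate 2 below all of them, and the coefficient of variation was 15.7% in PG and 38.7% in GC. The log2 fold change was -0.60 ± 0.22 (SE), with an unadjusted p of 0.0111 and an adjusted p of 0.296 in edgeR. Its 95% interval ran from 0.484-fold to 0.902-fold. Over the 14 other settings the adjusted p ranged from 0.0812 to 0.706. The log2 fold change was -0.32 with GC replicate 1 left out and -0.86 with GC replicate 2 left out. The gene lies on chromosome 5, from 33739673 to 33782817.

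The VDAC genes encode the porins that carry ions and metabolites across the outer membrane. Vdac1 had 2770, 3024 and 2413 reads in PG replicates 1, 2 and 3 and 2102, 2413 and 3019 in GC replicates 1, 2 and 3, by far the most of the 8. It averaged 1006 ± 112 CPM in PG and 1000.3 ± 57.0 CPM in GC (SD, n = 3 each). The log2 fold change was 0.0075 ± 0.12 (SE), and the 95% interval, 0.848-fold to 1.19-fold, was the narrowest of the 8.

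Vdac2, which also holds the apoptosis protein BAK at the outer membrane, had 205, 203 and 283 CPM in PG replicates 1, 2 and 3 and 237, 240 and 238 CPM in GC replicates 1, 2 and 3. PG replicate 3 lay above all GC libraries and the other PG libraries below them. Its log2 fold change was -0.054 ± 0.14 (SE) with all libraries and -0.22 without PG replicate 3. Vdac3, the third isoform, had 87.5, 114 and 102 CPM in PG replicates 1, 2 and 3 and 102, 119 and 131 CPM in GC replicates 1, 2 and 3. Its log2 fold change was -0.22 ± 0.15 (SE), with an adjusted p of 0.656 (edgeR), and the groups overlapped.

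In the fit on all reads and libraries, the 95% intervals of Micu2, Mcur1, Vdac1, Vdac2 and Vdac3 lay wholly within 1.5-fold either way. Those of Mcu, Smdt1 and Letm1 reached past it. The bound did not hold in every other setting. On unique reads the log2 fold change of Vdac3 was -0.20 ± 0.24 (SE). That of Mcur1 was 0.25 ± 0.21 without GC replicate 1, and that of Micu2 was 0.21 ± 0.22 without GC replicate 2. With such errors, 95% intervals reach past 1.5-fold. A p that misses the threshold does not show that PG and GC are alike in any of these genes.

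**Figure D2:**
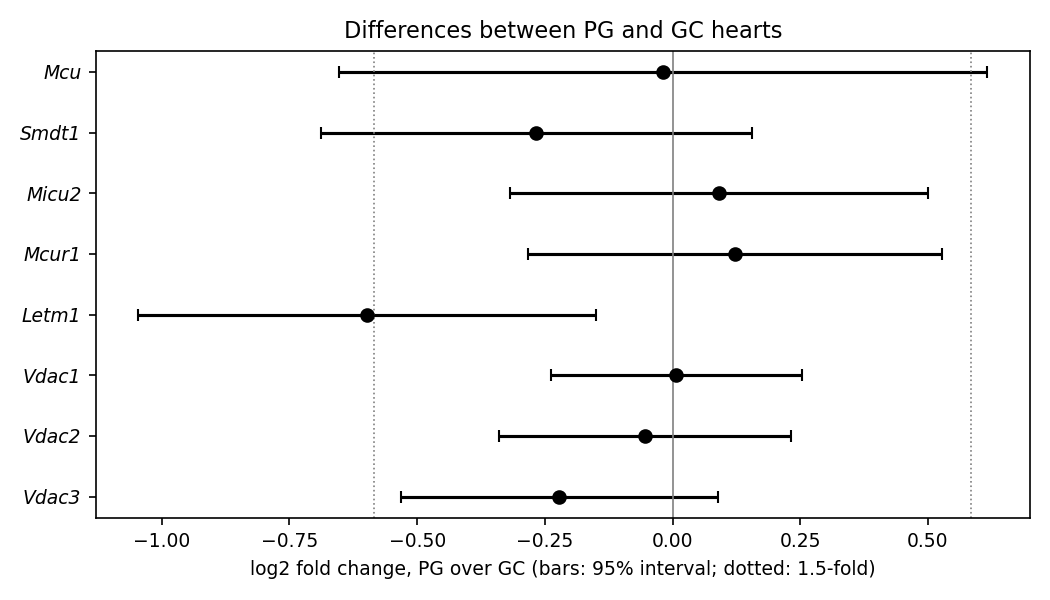
Log2 fold change of PG over GC for each gene from edgeR's quasi-likelihood fit, with bars for the 95% interval and dotted lines at 1.5-fold in either direction. Letm1, at -0.60, is the only gene whose interval leaves out 0, and its adjusted p was 0.296.

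The balance of the subunits did not differ beyond the spread between libraries. The ratio of Smdt1 to Mcu reads was 2.67, 2.28 and 2.46 in PG replicates 1, 2 and 3 and 4.75, 1.85 and 3.05 in GC replicates 1, 2 and 3. The GC values surround the PG values. The ratio of Micu2 to Mcu reads was 3.42, 3.24 and 3.65 in PG and 2.79, 2.70 and 4.10 in GC, again with PG inside the GC range. Among the porins, Vdac2 over Vdac1 was 0.222, 0.211 and 0.249 in PG and 0.234, 0.229 and 0.254 in GC. Vdac3 over Vdac1 was 0.0949, 0.118 and 0.0899 in PG and 0.101, 0.114 and 0.140 in GC. Exact two-sided permutation tests of the log2 ratios gave p = 0.6, 0.5, 0.4 and 0.3 in this order, and 0.6 for each after Benjamini-Hochberg adjustment over the 4 ratios. With 3 libraries against 3 such a test cannot go below 0.1. A ratio of reads here is not corrected for length, so it compares libraries and not the amounts of the proteins.

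**Figure D3:**
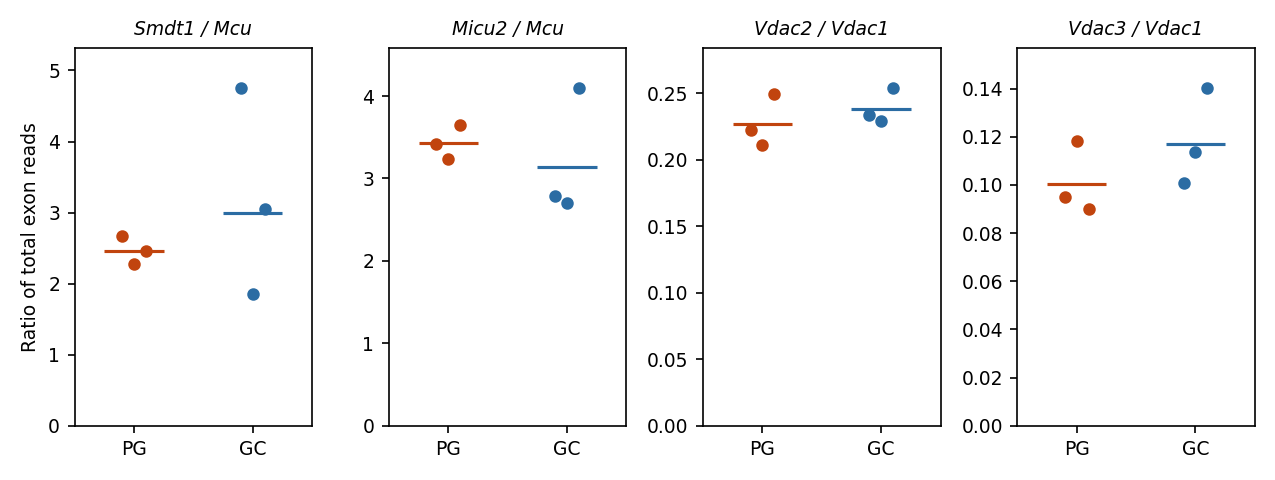
Ratio of total exon reads of Smdt1 to Mcu, Micu2 to Mcu, Vdac2 to Vdac1 and Vdac3 to Vdac1 in each library, with a line at the geometric mean of each group. In the 2 ratios to Mcu the PG points lie closer together than the GC points, and PG and GC overlap in all 4 ratios.

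The level of Vdac3 depends on how reads that fit several places are counted. Of its 1747 exon reads, 23.9% were unique, that is, fitted a single place, against 56.5% for Vdac2, 84.6% for Vdac1, 99.7% for Smdt1 and every read of the other 4 genes. On unique reads with the same scaling, Vdac3 stood at 16.3 RPKM, Vdac2 at 28.2 and Vdac1 at 325. So Vdac3 lay above Vdac2 in 6 of 6 libraries on all reads and in 0 of 6 on unique reads. Unique reads were divided by the same full exon length, so a gene with fewer unique reads falls further by construction. The order and shares on unique reads are therefore not a second estimate of level. Smdt1 then ranked next after Vdac1. Vdac1 made up 76.1% to 78.0% of the summed level of the 3 porins in PG and 72.8% to 77.0% in GC on all reads. On unique reads its share was 87.5% to 89.2% in PG and 85.7% to 88.9% in GC. Pseudogene rows were looked for only under names that begin with a gene's symbol and a hyphen. The row found, Vdac3-ps1, had 0 reads of either kind. Pseudogene rows under other names were not examined.

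**Figure D4:**
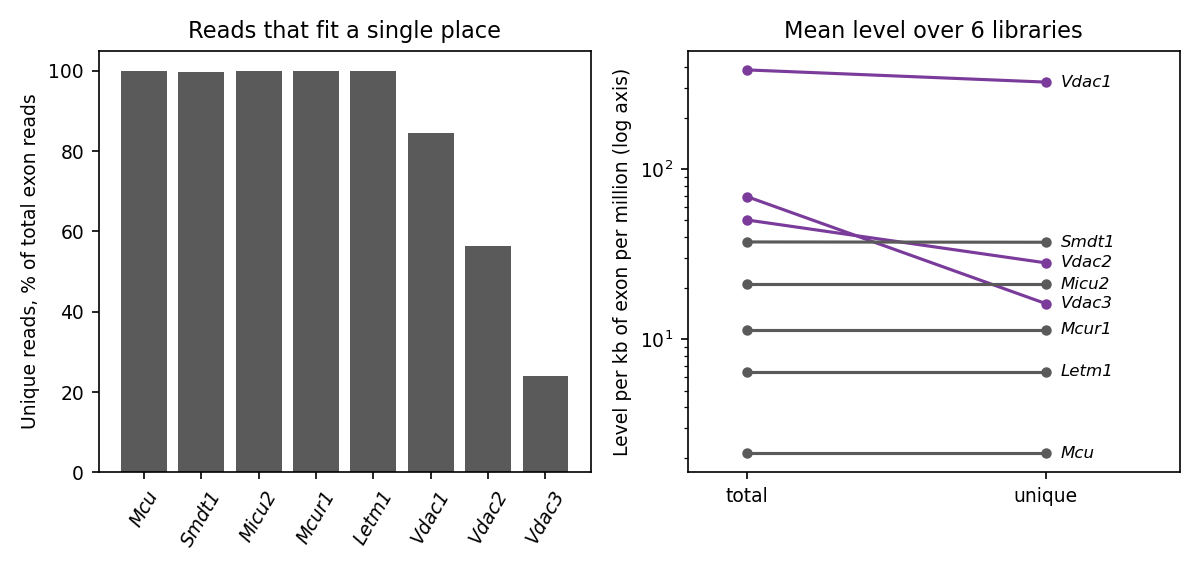
Left, unique reads as a percent of total exon reads over the 6 libraries; right, the mean level in RPKM (log axis) on total and on unique reads. Vdac3 stands at 68.9 RPKM on total reads and 16.3 RPKM on unique reads, and the 5 genes outside the VDAC family keep their levels.

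Reads that cross an exon junction, a mark of spliced mRNA, made up 9.08% (Mcur1) to 25.2% (Letm1) of a gene's exon reads. Intron reads ran from 0.165% of the gene's exon and intron reads in Vdac1 to 14.4% in Mcu. For Mcu they were 40 beside 237 exon reads, a share of 10.8% in PG and 18.1% in GC, pooled over the libraries of a group. By library, the intron reads of Mcu were 3, 7 and 5 in PG replicates 1, 2 and 3. In GC replicates 1, 2 and 3 they were 0, 10 and 15, so the groups overlapped. Of the rows whose span overlaps one of the 8 genes, Comtd1, which overlaps Vdac2, held the most, 46 exon reads against 3664 for Vdac2.

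No direct partner of the uniporter passed the test either. Micu3 (13 reads in PG and 21 in GC) and the inhibitory pore subunit Mcub, listed under its older symbol Ccdc109b (10 in PG and 11 in GC), were too low to be tested. The mitochondrial sodium-calcium exchanger Slc8b1 had 43 reads in PG and 52 in GC, with a log2 fold change of -0.44 ± 0.47.

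Ghitm (TMBIM5), described as a proton-coupled calcium exchanger of the inner membrane, stood well above these genes at 86.0 RPKM. It averaged 270.2 ± 14.5 CPM in PG and 259 ± 24.2 CPM in GC (SD, n = 3 each), with a log2 fold change of 0.058 ± 0.13. Afg3l2, a subunit of the protease that degrades unassembled EMRE, had a log2 fold change of -0.14 ± 0.14. In this list of 14 genes, 10 were tested, and 0 were called higher and 0 lower in PG, where 0.581% of all genes tested were called. The median log2 fold change was 0.0022.

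Around the uniporter, 4 further lists gave the same count of 0 called in the main test, where 0.581% of all genes tested were called. This count depends on the setting, and genes of these lists called in other settings are given under Other observations. Among 14 tested calcium-regulated carriers and enzymes, 0 were called higher and 0 lower in PG, with a median log2 fold change of -0.074. In 5 of these 14 PG and GC did not overlap, against 16.3% of all genes tested. At an unadjusted p under 0.05 in edgeR, 1 was higher and 2 were lower in PG, against 10.4% of all genes tested. Their most abundant members per length were Ogdh, a subunit of the calcium-sensitive oxoglutarate dehydrogenase (-0.077 ± 0.12), and Pdha1 of pyruvate dehydrogenase (-0.071 ± 0.12). Of 15 tested genes at contacts of the endoplasmic reticulum with mitochondria, 0 were called higher and 0 lower in PG. There Hspa9, the chaperone that bridges VDAC1 and the inositol trisphosphate receptor, had a log2 fold change of -0.036 ± 0.12 and the tether Mfn2 one of -0.00099 ± 0.12.

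None of the 13 tested permeability transition genes and VDAC partners passed either, with values of -0.20 ± 0.13 for the ADP/ATP carrier Slc25a4 and 0.079 ± 0.12 for the mitochondrial creatine kinase Ckmt2. Of 15 tested inner membrane and matrix markers, 0 passed, 13 had negative log2 fold changes and the median was -0.16. Its most abundant members, the ATP synthase subunits Atp5a1 and Atp5b, had log2 fold changes of -0.21 ± 0.12 and -0.12 ± 0.11. Counting each gene once, 66 genes of these 5 lists were tested, 5 had an unadjusted p under 0.05 and 10 had PG and GC values that did not overlap. Over all genes tested those shares were 10.4% and 16.3%.

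**Figure D5:**
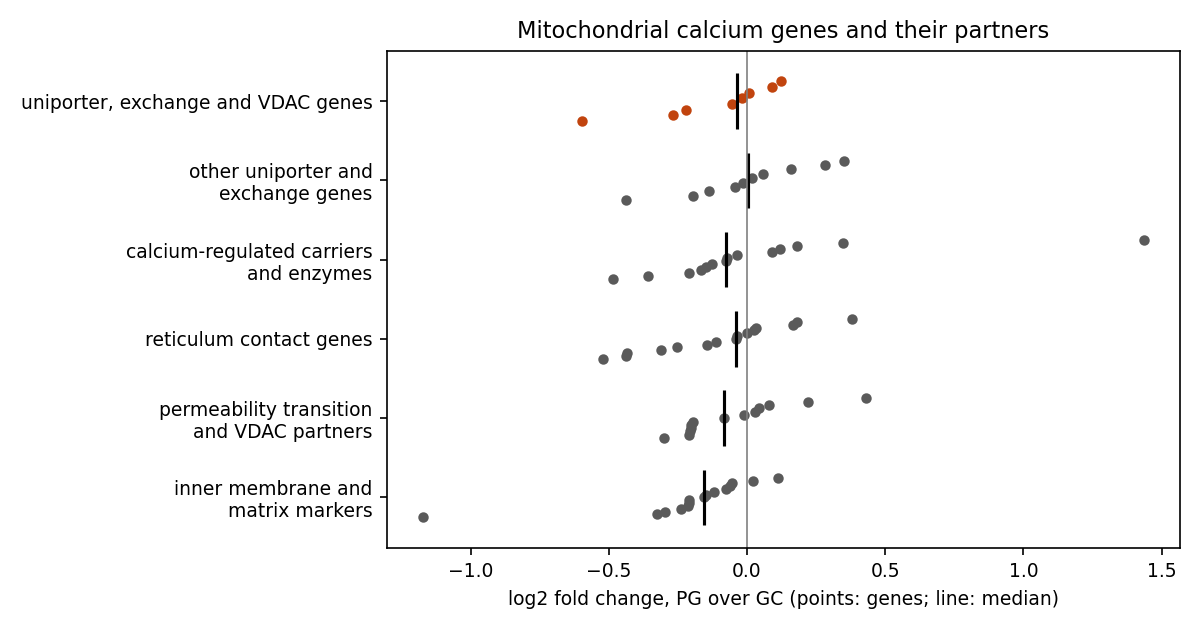
Log2 fold change of PG over GC for each tested gene of the 8 (top row) and of the 5 related lists, with a line at the median of each list. Medians run from -0.16 for inner membrane and matrix markers to 0.0022 for the other uniporter and exchange genes, and no point passed the threshold.

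By their pattern over the 6 libraries, the genes most like Mcu were Rbm8a, Sbno1 and Snap47, with Pearson correlations of log2 CPM of 0.98, 0.98 and 0.97. Those most like Vdac1 were Tmed5, Lta4h and Tmem234, at 0.99, 0.99 and 0.98. These are the highest of 6306 genes with a mean of at least 10 CPM, over 6 libraries that share their scaling, and are given as a description with no test.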

How the data were processed

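Counts of total exon reads and of unique exon reads per gene and library were taken as the authors deposited them, without correction for PCR duplicates; junction and intron counts were used as descriptions. Per the labels' protocols, the lysates were cleared of nuclei and mitochondria, treated with RNase I, and protected pieces 25 to 35 nt long were selected on a gel. The submitters' processing notes name the builds GRCm38 and mm10. For the aligner, the counter and the use of strand, the answer is: not given in the sources used here. The authors' deposited p-values, and their deposited signed fold change, a score that is negative where PG is lower, come from their EDGE test, per the file headers. Another 66 per-library columns of values were not used. Starts are shifted to count from 1.

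The main test was edgeR 4.0.16 (R 4.3.3) on total exon reads (filterByExpr at a minimum count of 10, TMM factors, glmQLFit, glmQLFTest, group as the only term), for 9124 of 16855 genes with a read, with a Benjamini-Hochberg adjusted p of 0.05 as the threshold. Standard errors and 95% intervals come from the F statistic. Log2 CPM for correlations used a prior count of 2. On counts simulated for PG against GC (5 simulations, 200 genes changed, about 8855 tested), 11.6% of genes changed 1.5-fold, 42.1% changed 2-fold and 93.6% changed 4-fold were called.

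The members and lists were chosen with earlier results of these data known. All 8 genes are named; genes of the pathway lists were named as called, else as the 2 highest per length, plus Micu3, Mcub, Slc8b1 and Ghitm; 1 further gene of the rule is not reported here. Alternatives were unique reads, DESeq2 1.42.0, limma-voom (limma 3.58.1), other scaling and filtering, a replicate block and leaving out each library. Same-numbered libraries did not deviate together (correlations of -0.03 to -0.0083). Within groups, every pair of libraries differed beyond counting error (chi-square of 4.16 or more per degree of freedom), so none was counted as a duplicate.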

Additional observations from a re-analysis of the deposited data

How the results depend on the processing

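In 14 other settings 0 of the 8 genes was called. The count of genes called over the whole table, 53, was 90 on unique reads, 181 without a filter on low counts, 80 with limma-voom and 22 with the replicate block, and ran from 19 (without GC replicate 2) to 102 (without GC replicate 3) when a library was left out, with 25 without PG replicate 1 and 26 without PG replicate 2. The block changed no call among the 8 genes. The labels do not say whether same-numbered PG and GC libraries belong together. Of 112 log2 fold changes of the 8 genes in other settings, 101 kept their sign and 11 did not. Vdac2 was 0.026 on unique reads and -0.22 to 0.027 with a library left out. Mcu was 0.050 with library size alone and 0.036 with limma-voom, and -0.16 to 0.26 with a library left out. The ranges with a library left out were -0.060 to 0.25 for Mcur1, -0.11 to 0.21 for Micu2 and -0.084 to 0.063 for Vdac1. Smdt1 ran from -0.40 (without PG replicate 1) to -0.088 (without GC replicate 1), with -0.16 without PG replicate 3, and Vdac3 from -0.32 (without PG replicate 2) to -0.13 (without PG replicate 1 or GC replicate 3). The ratio differences ranged, with a library left out, from -0.63 to 0.053 for Smdt1 to Mcu, 0.022 to 0.32 for Micu2 to Mcu, -0.14 to -0.019 for Vdac2 to Vdac1 and -0.34 to -0.093 for Vdac3 to Vdac1, on the log2 scale. Levels in RPKM were 325 for Vdac1, 28.2 for Vdac2 and 16.3 for Vdac3 on unique reads, fewer reads being counted by construction. Library size alone moved the median of all genes to 0.058, with 25 of 41 calls higher in PG, beside 23 of 53. Levels per coding length were not run. Depth limits Mcu most, with 237 reads over 6 libraries.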

Other observations

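Among the genes around the uniporter, 3 are named after their values were seen, outside the naming rule. Dlst, a subunit of the calcium-sensitive oxoglutarate dehydrogenase, averaged 279.7 ± 14.5 CPM in PG and 391 ± 27.2 CPM in GC (SD, n = 3 each), with no overlap between the groups. Its log2 fold change was -0.48 ± 0.12 (SE) with an adjusted p of 0.0674 in edgeR, and it was called in 4 of 14 other settings (unique reads, no filter, DESeq2 and limma-voom), over which the adjusted p ran from 0.0118 to 0.378. Slc25a24, a calcium-activated carrier of ATP-Mg and phosphate, had 14, 20 and 11 reads in PG replicates 1, 2 and 3, against 2, 7 and 6 in GC replicates 1, 2 and 3. Its log2 fold change was 1.43 ± 0.62 (SE) with an adjusted p of 0.416 (edgeR), and it was called in 0 of the other settings.

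Timm23, an inner membrane import channel, had 91, 2 and 0 reads in PG replicates 1, 2 and 3 and 26, 86 and 73 in GC replicates 1, 2 and 3, and 3.24% of its reads were unique. It was called in 2 of 13 other settings (no filter and without PG replicate 1).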
